A study of Danio rerio with 6 samples.

Results

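The genes described here are those of direct targets of mTOR complex 1 (mTORC1), of its feedback on insulin signaling and of its inhibitors under stress. They were chosen by name: *rps6kb1a*, *rps6kb1b*, *eif4ebp1*, *eif4ebp2*, *eif4ebp3*, *irs1*, *sesn1*, *sesn2*, *ddit4* and *grb10b*. Of these 10 names, 9 are carried by a row of the count matrix when case is ignored, and together they gave 10 of its 32057 gene rows. The name *eif4ebp3* stands for 2 gene IDs, which the gene name table writes as EIF4EBP3 (ENSDARG00000041607) and *eif4ebp3* (ENSDARG00000054916). No row is named *grb10b*. The table gives the name GRB10 to 2 gene IDs without telling the paralogs apart, and both are given below as related genes.

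mTORC1 is a protein kinase complex that couples amino acids, energy and growth factors to protein synthesis. It phosphorylates the S6 kinases, which act on ribosomal protein S6 and the translation machinery, and the 4E-BPs, small proteins that hold the cap-binding factor eIF4E until mTORC1 releases them. In mammals, S6 kinase and Grb10 feed back on insulin receptor signaling, S6 kinase by phosphorylating the docking protein IRS1. The sestrins act on the GATOR complexes and AMPK, and Ddit4 (REDD1) acts through the TSC complex, to lower mTORC1 activity under stress. Rapamycin binds FKBP12, and this pair inhibits mTORC1 allosterically and in part: phosphorylation of the S6 kinases is lowered strongly, while much of that of the 4E-BPs can persist. The values below are RNA levels and hold no measure of phosphorylation.

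Regenerated tail fins of larval zebrafish were collected at 24 h post amputation (hpa) in 3 control and 3 rapamycin treated libraries, each from 50 pooled fins. The tail fin was amputated at 3 days post fertilization (dpf). Rapamycin was given at 1 µM from 2 dpf and renewed every day, and larvae of the control group were kept in DMSO, its solvent. The labels call the control genotype WT and write "mtor inhibition" as the genotype of the treated larvae, which carried the drug and no mutation. A library averages all cells of 50 fins, so fewer cells of a type and less RNA per cell cannot be told apart. The 2 groups differed in the drug alone as far as the labels say, and the labels give no batch.

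The libraries held between 49055607 and 54162044 counts, and 19778 genes passed the low-count filter. The controls lay apart from one another: on the first principal component control replicate 1 stood at -8.84, controls 2 and 3 at -77.4 and -92.4, and the rapamycin libraries at 59.1 to 60.0. A trend with gene span (the distance from a gene's first to its last base) set libraries apart as well. Over 13355 genes, span and a gene's deviation from its own mean had a Spearman correlation of 0.212 in control replicate 1, -0.338 and -0.283 in controls 2 and 3, and 0.158 to 0.296 in the rapamycin libraries. The markers of the labelled tissue were present, as 15 epidermal genes summed to between 50570 and 75890 CPM (counts scaled to the library's size) and 20 genes of fin mesenchyme to between 90960 and 155400 CPM over the 6 libraries.

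Rapamycin treated fins carried more RNA of the S6 kinase gene *rps6kb1a* and of the insulin receptor docking gene *irs1*, and less of the sestrin gene *sesn2*. *rps6kb1a* was 1.85-fold higher, *irs1* 1.85-fold higher and *sesn2* 1.96-fold lower. Of the 10 member rows, 9 passed the low-count filter. Of these, 2 rose, 1 fell and 6 did not pass the test at an adjusted p under 0.05 (edgeR). Among all 19778 tested genes, 1.97% rose and 3.27% fell, 5.24% in all. No member reached an absolute log2 fold change of 1, the size the study required together with a P under 0.05, for which it states no adjustment. With that size and the adjusted p used here, 4.1% of all genes passed. The median log2 fold change of the 9 tested members was -0.01, and that of all tested genes 0.00. All 3 calls were lost when any 1 library other than control replicate 1 was left out (edgeR, adjusted p between 0.0622 and 0.195).

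**Figure D1:**
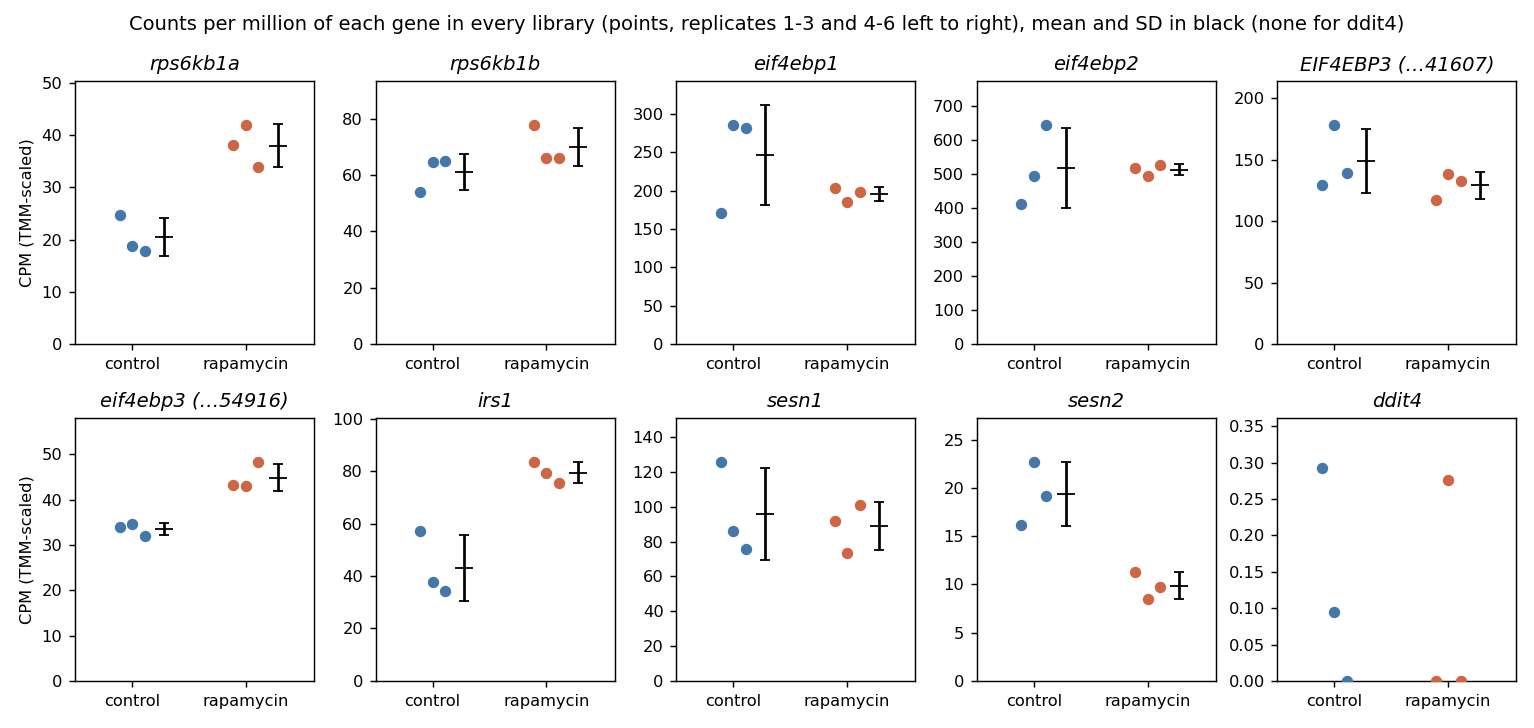
CPM (counts scaled to the library's size, with TMM factors) of each gene row in the 3 control (blue) and 3 rapamycin (orange) libraries, with the mean and SD of each group in black except for *ddit4*. The groups do not overlap for *rps6kb1a* (17.9 to 24.8 against 33.8 to 42.0 CPM), *rps6kb1b*, *eif4ebp3* (ENSDARG00000054916), *irs1* and *sesn2*. Of all tested genes, 30.7% have groups without overlap. *ddit4* lies below 0.3 CPM in every library.

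The S6 kinase paralogs were described first. *rps6kb1a* (ENSDARG00000018399), which encodes p70 S6 kinase, had 24.8, 18.9 and 17.9 CPM in control replicates 1 to 3 and 38.2, 42.0 and 33.8 CPM in rapamycin replicates 4 to 6. Every rapamycin library lay above every control, and the control nearest to them was replicate 1. The means were 20.5 ± 3.72 and 38.0 ± 4.07 CPM (SD, n = 3), which is 0.89 ± 0.20 on the log2 scale (SE; edgeR adjusted p = 0.0363). With each library's trend with gene span removed, *rps6kb1a* kept its call (log2 fold change 0.85, edgeR adjusted p = 0.0238). With library size as the only scaling it lost it (edgeR adjusted p = 0.0811). Without control replicate 1 the log2 fold change was 1.04 (edgeR adjusted p = 0.00167), and without any other single library 0.80 to 0.97 (adjusted p between 0.0733 and 0.186). The fit without control replicate 1 called 15.5% of all genes higher.

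Its paralog *rps6kb1b* (ENSDARG00000058230) had 53.9, 64.6 and 65.0 CPM in the control and 77.8, 66.2 and 66.1 CPM in the rapamycin libraries. The groups did not overlap, but controls 2 and 3 came within about the spread of the rapamycin libraries. The log2 fold change was 0.20 (95% interval -0.18 to 0.57, edgeR adjusted p = 0.514), so it did not pass. Groups without overlap were common in this series: 30.7% of all tested genes had them, with the rapamycin libraries above in 14.8% and below in 15.9%. Of the 9 tested members, 5 had them, 4 above and 1 below.

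A ratio of both paralogs within a library does not depend on how the library is scaled. For every count of *rps6kb1b* there were 0.460, 0.292 and 0.276 counts of *rps6kb1a* in the controls and 0.491, 0.634 and 0.512 in the rapamycin libraries. The ratio was 1.63-fold higher in the rapamycin group and the groups did not overlap, although control replicate 1 came close to rapamycin replicate 4. The exact two-sided permutation test gave p = 0.1, the smallest that 3 against 3 libraries allow, and 0.15 adjusted over 9 ratios. Reads that fit both paralogs may have been split or dropped in the counting, which the sources used here do not describe. Transcript lengths were not at hand, so the size of a ratio, and levels of different genes, are not compared; only the change of a ratio between libraries is read.

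**Figure D2:**
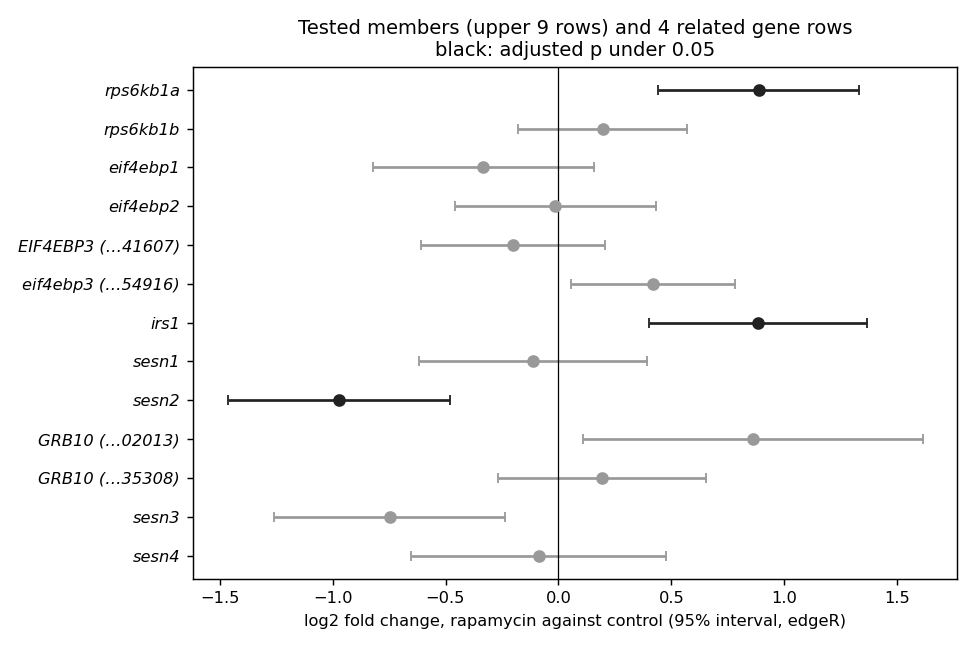
Log2 fold change of the 9 tested member rows and 4 related gene rows, rapamycin against control, with 95% intervals from edgeR; black marks an adjusted p under 0.05. *rps6kb1a* (0.89), *irs1* (0.88) and *sesn2* (-0.97) pass, while the interval of the upper GRB10 row is wider than those of all members shown.

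The 4E-BP genes, which encode the translational repressors that mTORC1 releases from eIF4E, held no member that passed. *eif4ebp1* (ENSDARG00000043608) had 171, 285 and 282 CPM in the controls and 204, 185 and 198 CPM in the rapamycin libraries. Control replicate 1 lay below all rapamycin libraries and controls 2 and 3 above them. The log2 fold change was -0.33 (95% interval -0.82 to 0.16, edgeR adjusted p = 0.390). Without control replicate 1 *eif4ebp1* was called lower, with a log2 fold change of -0.55 (edgeR adjusted p = 0.00533). In that fit 15.5% of all 20220 tested genes were called higher and 15.6% lower. With the span trend removed it was -0.14 (adjusted p = 0.720).

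*eif4ebp2* (ENSDARG00000031819) had 413, 494 and 644 CPM in the controls and 517, 495 and 525 CPM in the rapamycin libraries. The rapamycin libraries lay inside the range of the controls. Its log2 fold change was -0.01 (95% interval -0.46 to 0.43, edgeR adjusted p = 0.978). The row EIF4EBP3 (ENSDARG00000041607) had 129, 178 and 139 CPM against 117, 138 and 133 CPM, and these groups overlapped too. Its log2 fold change was -0.20 (95% interval -0.61 to 0.20, edgeR adjusted p = 0.535).

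The row *eif4ebp3* (ENSDARG00000054916) differed from the other 4E-BP rows in that its groups did not overlap. It had 34.0, 34.6 and 32.1 CPM in the controls and 43.2, 43.0 and 48.4 CPM in the rapamycin libraries. Here control replicate 1 did not stand apart from the other controls. The log2 fold change was 0.42 (95% interval 0.06 to 0.78, unadjusted p = 0.0276), and over all genes it did not pass (edgeR adjusted p = 0.158). It passed without control replicate 1 (edgeR adjusted p = 0.0368), where the log2 fold change was 0.42 as well and 15.5% of all genes were called higher.

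The same row was set against *eif4ebp1* and *eif4ebp2* as ratios within a library. With 3 against 3 libraries the exact test cannot give a p under 0.1, so it could not call any of these ratios. There were 5.03, 8.25 and 8.78 counts of *eif4ebp1* for every count of *eif4ebp3* (ENSDARG00000054916) in the controls, and 4.71, 4.31 and 4.08 in the rapamycin libraries. This ratio was 1.64-fold lower in the rapamycin group. That of *eif4ebp2* to the same row was 1.33-fold lower, from 12.1, 14.3 and 20.1 to 12.0, 11.5 and 10.9, and that of *eif4ebp1* to *eif4ebp2* 1.24-fold lower. In these 3 ratios the groups did not overlap (exact two-sided permutation test, p = 0.1 each, 0.15 adjusted over 9 ratios), with control replicate 1 next to the rapamycin libraries for *eif4ebp1* and *eif4ebp2* against *eif4ebp3*. The ratios of *eif4ebp1* and *eif4ebp2* to EIF4EBP3 overlapped between the groups (exact p = 0.7 and p = 0.5).

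The 4 4E-BP rows were also summed and set against their target. Their summed counts were 6.09, 5.82 and 5.86 times the summed counts of the 3 cap-binding genes *eif4e1c*, *eif4eb* and EIF4E in the controls, and 6.59, 6.11 and 6.26 times in the rapamycin libraries. The groups did not overlap, and the ratio was 1.07-fold higher with rapamycin (exact two-sided permutation test, p = 0.1, 0.15 adjusted over 9 ratios). Control replicate 1 (6.09) lay next to rapamycin replicate 5 (6.11). The cap-binding rows had log2 fold changes of -0.13 (*eif4e1c*), -0.48 (*eif4eb*) and -0.09 (EIF4E), and none passed in edgeR. A higher ratio therefore does not by itself show more 4E-BP RNA. The log2 ratios had a SD of 0.03 over the controls and 0.06 over the rapamycin libraries (n = 3 each).

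**Figure D3:**
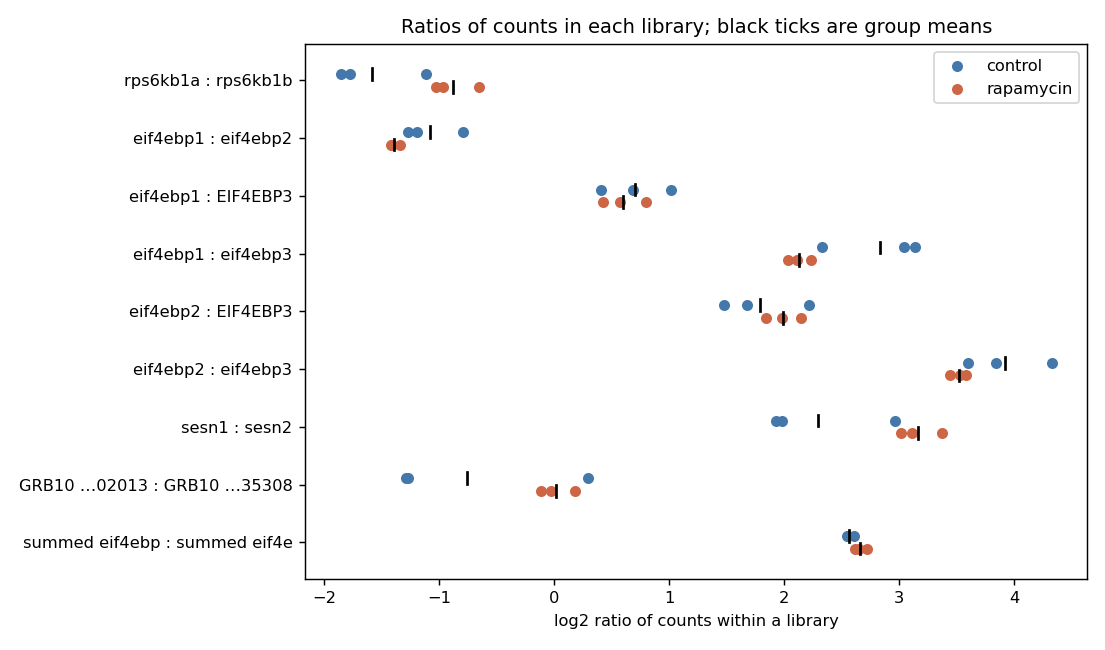
Log2 ratio of counts in each control (blue) and rapamycin (orange) library for the 9 ratios, with group means as black ticks. The groups do not overlap in 6 of the 9 ratios, and in that of *sesn1* to *sesn2* the control nearest to the rapamycin libraries is replicate 1 (log2 ratio 2.96 against 3.02 to 3.37). Several ratios share gene rows and are not independent. How often ratios of other genes lack overlap was not computed.

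On the feedback side, *irs1* (ENSDARG00000054087) encodes the docking protein that links the insulin and IGF receptors to PI3 kinase. It had 57.3, 37.7 and 34.3 CPM in the controls and 83.7, 79.5 and 75.4 CPM in the rapamycin libraries. All rapamycin libraries lay above all controls, and again control replicate 1 was the nearest. The means were 43.1 ± 12.4 and 79.5 ± 4.14 CPM (SD, n = 3), which is 0.88 ± 0.22 on the log2 scale (SE; edgeR adjusted p = 0.0483). The gene spans 41.6 kb, and with the span trend removed its log2 fold change was 0.76 (edgeR adjusted p = 0.0295). The call was lost with upper quartile scaling (adjusted p = 0.0537) and with library size only (adjusted p = 0.117). Without control replicate 1 the log2 fold change was 1.14 (edgeR adjusted p = 5.68e-04), and without any other single library 0.74 to 0.92 (adjusted p between 0.0951 and 0.195). Of all genes, 15.5% were called higher in the fit without control replicate 1.

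The 2 GRB10 rows, which encode adaptors that inhibit the insulin receptor in mammals, both had log2 fold changes above 0, of unequal size. Neither passed with all 6 libraries. ENSDARG00000002013 had 12.5, 9.14 and 24.8 CPM in the controls and 28.9, 25.4 and 30.1 CPM in the rapamycin libraries. Control replicate 3 came close to the rapamycin libraries and the other 2 lay far below. The log2 fold change was 0.86 ± 0.33 (SE; edgeR adjusted p = 0.161), and without control replicate 3 it passed (log2 fold change 1.38, adjusted p = 0.0174). ENSDARG00000035308 had 30.7, 22.1 and 20.3 CPM against 29.4, 27.5 and 26.6 CPM, with a log2 fold change of 0.19 (95% interval -0.27 to 0.65, edgeR adjusted p = 0.608). The ratio of the first to the second row overlapped between the groups (exact two-sided permutation test, p = 0.4).

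The stress inhibitors were led by *sesn2* (ENSDARG00000070012), which in mammals encodes a leucine sensor that binds GATOR2 and is induced by ATF4. It had 16.1, 22.7 and 19.2 CPM in the controls and 11.3, 8.53 and 9.74 CPM in the rapamycin libraries. All rapamycin libraries lay below all controls, with control replicate 1 the nearest control. The means were 19.4 ± 3.30 and 9.87 ± 1.41 CPM (SD, n = 3), which is -0.97 ± 0.22 on the log2 scale (SE; edgeR adjusted p = 0.0381). *sesn2* passed under every scaling, filter and tool tried with all 6 libraries, with adjusted p values from 0.00173 (DESeq2) to 0.0398 (library size only in edgeR). Without control replicate 1 the adjusted p was 0.00307 (edgeR), and without any other single library it lay between 0.0622 and 0.188. Of all genes, 15.6% were called lower in the fit without control replicate 1.

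*sesn1* (ENSDARG00000020693), a p53 target in mammals, had 126, 86.3 and 75.6 CPM in the controls and 91.8, 73.7 and 101 CPM in the rapamycin libraries. The groups overlapped. The log2 fold change was -0.11 (95% interval -0.62 to 0.39, edgeR adjusted p = 0.796). Within a library there were 7.80, 3.80 and 3.94 counts of *sesn1* for every count of *sesn2* in the controls and 8.09, 8.63 and 10.4 in the rapamycin libraries. The ratio was 1.84-fold higher with rapamycin, the groups did not overlap, and control replicate 1 lay next to the rapamycin libraries (exact two-sided permutation test, p = 0.1, 0.15 adjusted over 9 ratios). *sesn1* spans 78.1 kb and *sesn2* 16.3 kb, and this ratio, like the others, was not corrected for the trend with gene span. With that trend removed the log2 fold changes in edgeR were -0.30 for *sesn1* and -0.92 for *sesn2*.

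Among the other sestrin genes, *sesn3* had 36.9, 32.4 and 49.8 CPM in the controls and 18.5, 26.1 and 26.3 CPM in the rapamycin libraries. Its groups did not overlap, and its log2 fold change of -0.75 did not pass in edgeR (adjusted p = 0.0890), while DESeq2 called it (adjusted p = 0.0269). *sesn4*, chosen after its values were seen, had 12.9, 9.01 and 11.4 CPM against 8.00, 10.7 and 12.6 CPM, and its groups overlapped (log2 fold change -0.09, edgeR adjusted p = 0.859).

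*ddit4* (ENSDARG00000037618), the REDD1 gene, was hardly detected. It had 18, 5 and 0 counts in the controls and 0, 15 and 0 counts in the rapamycin libraries, in all 23 against 15 counts. A count of 0 allows up to 3 counts, which is 0.0679 CPM in control replicate 3, 0.0563 CPM in rapamycin replicate 4 and 0.0569 CPM in rapamycin replicate 6. Counts were found in some libraries of both groups and lacking in others, and a difference was not detectable at this depth. It did not pass the low-count filter with all 6 libraries and was therefore not tested there. Neither the floors nor the counts cover more than counting error.

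The other genes of the pathway were read from lists that leave out the member rows. On the substrate side, 12 genes of the S6 kinase axis, among them the activating kinase PDPK1, the substrate genes *rps6* and *eef2k* and the inhibitor *pdcd4a*, held no gene that passed (median log2 fold change 0.05). Of these, 1 had an unadjusted p under 0.05 and DESeq2 called 1. Over all 19778 tested genes, 23.4% had an unadjusted p under 0.05 and DESeq2 called 12.8%, and the counts of both kinds below are to be read against these shares. The 15 genes of the eIF4F complex likewise held none (median -0.10), with 2 at an unadjusted p under 0.05 and 0 called by DESeq2. Of 19 further mTORC1 subunits and substrates none passed (median 0.29), with 3 at an unadjusted p under 0.05 and 1 called by DESeq2. Their median was 0.63 without control replicate 1, with 6 genes called higher and 0 lower. With the span trend removed it was 0.13, with 1 of 13 genes called higher. Only these 13 have a known span, so this median is of a smaller set than the 19. *mtor* itself had 30.4, 17.6 and 15.1 CPM in the controls and 25.9, 24.7 and 25.8 CPM in the rapamycin libraries, which lay inside the range of the controls (log2 fold change 0.27, edgeR adjusted p = 0.566). Without control replicate 1 *mtor* was called higher (log2 fold change 0.63, edgeR adjusted p = 0.013), in the fit that called 15.5% of all genes higher. With the span trend removed its log2 fold change was 0.09 (edgeR adjusted p = 0.789).

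On the feedback side, 1 of 30 genes of the insulin and IGF receptors, their adaptors and PI3K-Akt rose, none fell and 29 did not pass, with 8 at an unadjusted p under 0.05 and 3 called by DESeq2. The gene that rose was *grb14*, whose product inhibits the insulin receptor in mammals as Grb10 does. It had 4.59, 3.08 and 3.31 CPM in the controls and 8.86, 8.05 and 8.16 CPM in the rapamycin libraries, which is 1.19 ± 0.27 on the log2 scale (SE; edgeR adjusted p = 0.0371). Every rapamycin library lay well above every control, and the call was lost without any single library except control replicate 1 (edgeR adjusted p between 0.0692 and 0.165) and with library size as the only scaling (0.0706). The median of the list was 0.46 against 0.00 over all tested genes, and 23 of its 30 genes had a log2 fold change above 0. Both GRB10 rows, described above, are on this list and among the 23. With the span trend removed the median was 0.08, but only over the 15 genes with a known span. These are not the same set as the 30 genes, so the change of the median is not that of the span trend alone. Without control replicate 1 it was 0.59, with 14 genes called higher and 1 lower, in the fit that called 15.5% of all genes higher and 15.6% lower.

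**Figure D4:**
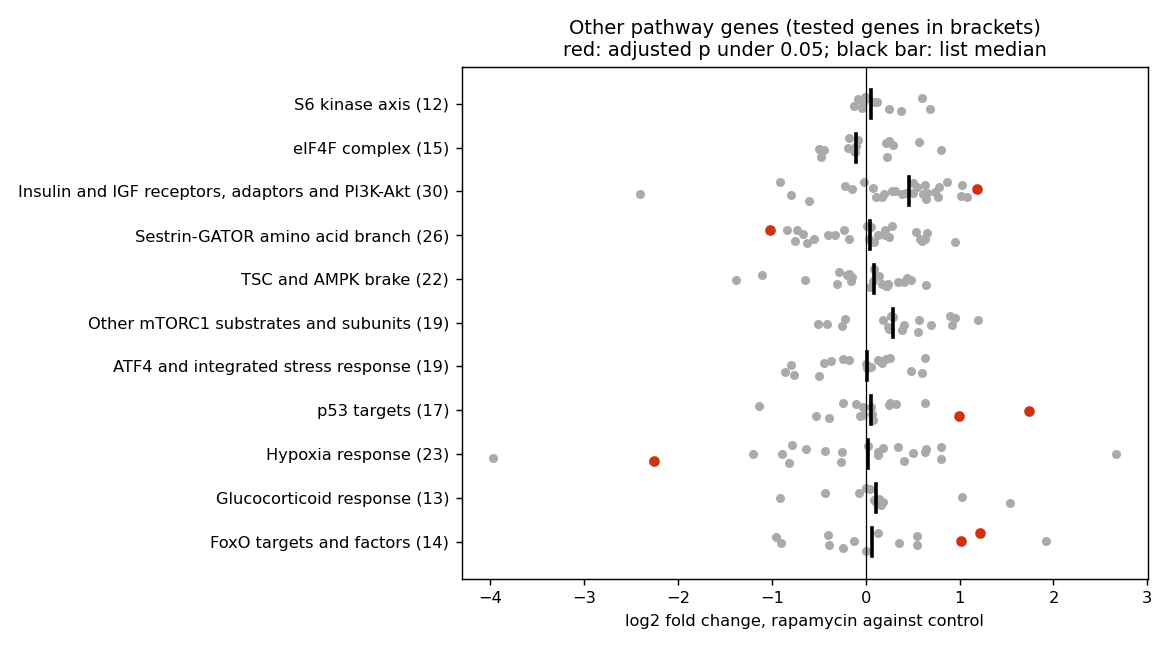
Log2 fold change of the other genes on 11 pathway lists, rapamycin against control; each point is a tested gene, red marks an adjusted p under 0.05 (edgeR) and the black bar is the median of the list. Every list has genes on both sides of 0, and the list of insulin receptors, adaptors and PI3K-Akt, with 23 of 30 genes above 0, has the highest median, 0.46.

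In the amino acid branch of sestrins, GATOR complexes and Rag GTPases, 1 of 26 genes fell, none rose and 25 did not pass (median 0.05). This list was not split by whether its genes raise or lower mTORC1 activity. At an unadjusted p under 0.05 there were 1 higher and 6 lower, and DESeq2 called 1 higher and 4 lower. *sesn3*, described above, is on this list and among the lower genes of both counts. The gene that fell was *sec13*, a part of GATOR2 that also serves the COPII coat and the nuclear pore. It had 178, 297 and 276 CPM in the controls and 119, 124 and 128 CPM in the rapamycin libraries, which is -1.02 ± 0.21 on the log2 scale (SE; edgeR adjusted p = 0.0296). The groups lay far apart, with control replicate 1 the lowest control, and the call of *sec13* was lost without any other single library (edgeR adjusted p between 0.0553 and 0.149). Of 22 genes of the TSC complex and AMPK, through which Ddit4 and the sestrins act, none passed (median 0.08), with 2 at an unadjusted p under 0.05 and 2 called by DESeq2.

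The stress programs known in mammals to induce the sestrins and *ddit4* were read in the same way. Of 19 other genes of the ATF4 and integrated stress response none passed (median 0.02), with 5 at an unadjusted p under 0.05 and 3 called by DESeq2. With the span trend removed their median was 0.26 and 2 were called higher and 0 lower, in a fit that called 2.79% of all genes higher and 3.45% lower. Of 17 other p53 targets 2 rose and none fell (median 0.06), with 4 at an unadjusted p under 0.05 and 4 called by DESeq2. Both encode BH3-only cell death proteins: *bbc3* (Puma) had 7.43, 5.27 and 3.69 CPM in the controls and 19.0, 17.6 and 18.3 CPM in the rapamycin libraries, which is 1.74 ± 0.28 on the log2 scale (SE; edgeR adjusted p = 0.0112). *pmaip1* (Noxa) was 1.00 higher on the log2 scale (edgeR adjusted p = 0.0272). Both lost their call without control replicate 2 or any rapamycin library (edgeR adjusted p between 0.0659 and 0.154).

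Of 23 genes of the hypoxia response 1 fell, the adrenomedullin row ADM (ENSDARG00000069027), from 7.33, 8.35 and 8.08 CPM to between 1.46 and 2.01 CPM (log2 fold change -2.26, edgeR adjusted p = 0.00555). It kept its call without each single library in turn (largest adjusted p = 0.0472). The other ADM row (ENSDARG00000015263) had a log2 fold change of 0.18 and did not pass (edgeR adjusted p = 0.709). The list had 7 genes at an unadjusted p under 0.05 and 4 called by DESeq2. Of 13 genes of the glucocorticoid response none passed (median 0.11), with 3 at an unadjusted p under 0.05 and 2 called by DESeq2. Of 14 tested FoxO factors and targets 2 rose: *cited2* (log2 fold change 1.02, edgeR adjusted p = 0.0157) and the FOXO1 row ENSDARG00000099555 (1.22, edgeR adjusted p = 0.0254). FOXO1 is a transcription factor that insulin signaling keeps out of the nucleus. The FOXO1 row had 38.8, 21.9 and 21.7 CPM in the controls and 65.3, 65.2 and 61.6 CPM in the rapamycin libraries, so that control replicate 1 was again the control nearest to the treated fins. Without control replicate 2 or any rapamycin library, *cited2* and the FOXO1 row lost their call (edgeR adjusted p between 0.0699 and 0.126), and without control replicate 3 (0.054) or with library size as the only scaling (0.0684) the FOXO1 row did too. The other FOXO1 row (ENSDARG00000061549) had a log2 fold change of 1.92 ± 1.06 (SE) and did not pass (edgeR adjusted p = 0.312), although its groups did not overlap. The list had 5 genes at an unadjusted p under 0.05 and 3 called by DESeq2.

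The summed levels of marker genes of other cell types did not overlap between the groups for skeletal muscle, erythroid cells, neutrophils and pigment cells, and overlapped for the other marker lists. Sums without overlap were not particular to markers. Among the pathway lists they were found for the S6 kinase axis (controls 1548 to 2099, rapamycin 2183 to 2319 CPM) and the hypoxia response (484.5 to 555 against 562 to 623 CPM). The same held for the amino acid branch (733 to 947 against 651 to 677 CPM) and the further mTORC1 subunits and substrates (534 to 636 against 660 to 685 CPM). The other pathway lists overlapped. The summed level of 19 skeletal muscle genes was 490 to 629 CPM in the controls and 339 to 454 CPM in the rapamycin libraries (1 of 17 tested genes fell, median -0.65). That of 12 erythroid genes was 116 to 130 against 39.3 to 55.8 CPM (2 of 10 fell, median -1.11; *hbbe3* was at 0 in every library). That of 10 neutrophil genes was 262 to 369 against 433 to 629 CPM (1 of 8 rose, median 0.62). Of these 8, 6 had a log2 fold change above 0, while *lyz* (-0.44) and *npsn* (-0.13) lay below 0. The listed marker *mpx* matched no row. The 16 macrophage genes summed to 240 to 350 against 239 to 338 CPM (3 of 15 fell, median 0.05). The sums of 15 epidermal genes (50570 to 63440 against 62660 to 75890 CPM; 2 rose, median 0.32), 20 genes of fin mesenchyme (90960 to 155400 against 106700 to 115500 CPM; 1 fell, median -0.11) and 14 notochord genes (822 to 1498 against 913 to 1098 CPM; 1 of 13 rose and 2 fell, median -0.16) are given beside them. Pigment cell genes (13) summed to 209 to 260 against 157 to 201 CPM (1 fell, median 0.41). Although this sum was lower, 9 of the 13 genes had a log2 fold change above 0, and the 1 that fell was *gch2* (-1.25). The 14 genes of neurons and the lateral line summed to 52.9 to 114 against 39.8 to 58.7 CPM (none of 12 passed in edgeR, median -0.53). Of these 12, 1 had an unadjusted p under 0.05 (edgeR) and DESeq2 called 1. At an unadjusted p under 0.05 (edgeR) were 11 skeletal muscle genes (0 higher), 4 erythroid (0 higher), 3 neutrophil (3 higher) and 7 macrophage genes (1 higher). The same held for 8 epidermal (7 higher), 8 mesenchymal (3 higher), 3 notochord (1 higher) and 3 pigment cell genes (2 higher). DESeq2 called 4, 3, 2, 4, 5, 3, 3 and 1 genes of these lists, in the same order. The part of these cell types in the changes of *rps6kb1a*, *irs1* and *sesn2* was not tested.

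Of 9781 tested genes with a symbol and a mean log2 CPM of at least 3, the 3 whose centred log2 CPM over the 6 libraries lay nearest to that of each called member were listed as a description. For *rps6kb1a* they were *sall3b*, *dazap2* and SLC20A1 (Euclidean distances of 0.139, 0.180 and 0.196 log2 units). For *irs1* they were KSR1, STAG2 and EPHA4 (0.0987, 0.107 and 0.113). For *sesn2* they were *armc1l*, *h2ax* and *eef1e1* (0.0887, 0.155 and 0.163).

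**Figure D5:**
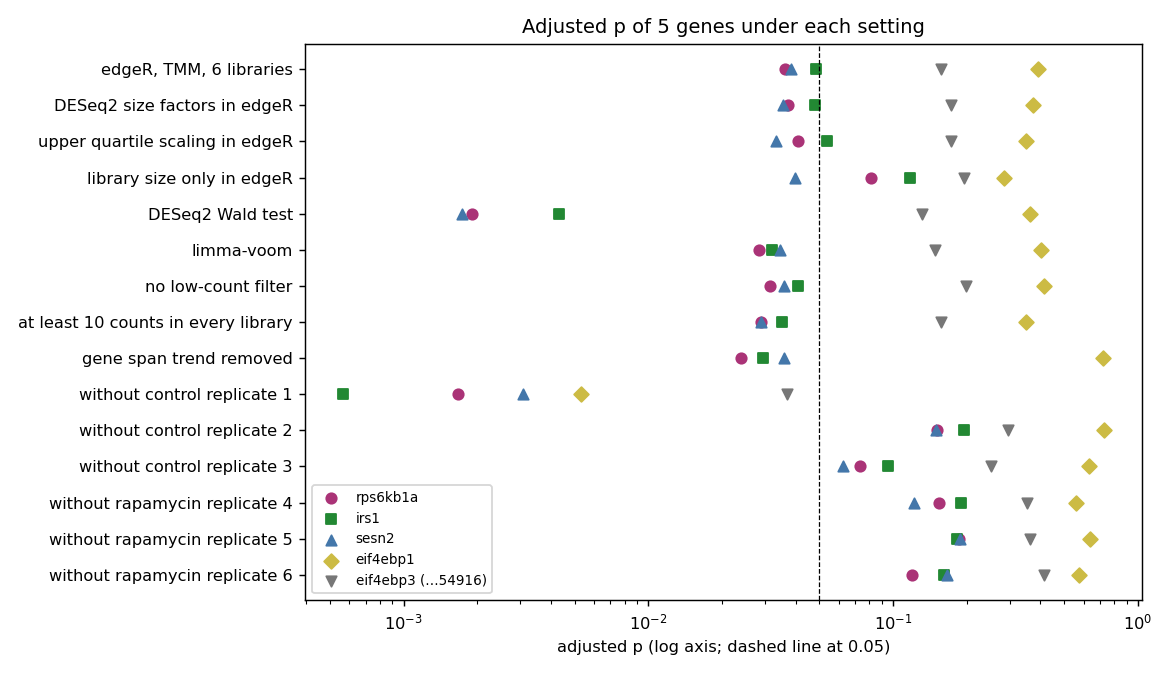
Adjusted p of 5 genes (log axis, dashed line at 0.05) under the edgeR test with TMM scaling and 14 alternatives. *rps6kb1a*, *irs1* and *sesn2* lie left of the line in most settings that keep all 6 libraries and right of it without any single library other than control replicate 1, while *eif4ebp1* and the *eif4ebp3* row pass without control replicate 1 alone.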

How the data were processed

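SMART-seq libraries of pooled larval fins were analysed. The authors extracted total RNA with Trizol, made cDNA with SMARTScribe reverse transcriptase, fragmented and amplified it and sequenced paired ends. The deposited table holds whole-number counts per Ensembl zebrafish gene ID, 1 column per library, with no normalization, and its totals lay between 49055607 and 54162044 counts. Neither the aligner nor the counting tool is named in the sources used here. The submitters' processing notes name the mouse build mm10, so no coordinates are given. Symbols came from a gene name table (28988 of 32057 IDs), and a list symbol without a match was also tried without its paralog letter. Gene spans came from RefSeq (GRCz12tu), matched by symbol for 13355 of 19778 tested genes.

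Counts were filtered with filterByExpr, scaled by TMM and tested with edgeR 4.0.16 (quasi-likelihood, robust, no covariate) in R 4.3.3, with Benjamini-Hochberg adjustment over all 19778 tested genes; a gene rose or fell at an adjusted p under 0.05. Standard errors are the absolute log2 fold change over the square root of F, and intervals hold at the 95% level. CPM are TMM-scaled. Ratios of counts within a library, with 0.5 added to both, were compared by an exact two-sided permutation test. Alternatives were DESeq2 1.42.0, limma-voom 3.58.1, DESeq2 size factors, upper quartile scaling, library size only, no low-count filter, a minimum of 10 counts per library, removal of each library's loess trend with gene span, and leaving out each library. The edgeR script was tested on simulated data. Replicates are pools of separate fins, and labels do not say whether the pools came from separate clutches; p-values measure the spread between these pools. Genes named are the members, up to 3 called genes per pathway list with the smallest adjusted p, and the 3 nearest profiles; *mtor*, GRB10, *sesn3* and *sesn4* were added. The members, lists and tests were chosen with earlier results of these data known.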

Additional observations from a re-analysis of the deposited data

How the results depend on the processing

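Depth did not limit the tested members, which had at least 463 counts in every library, but left *ddit4* under the low-count filter. With no low-count filter the adjusted p of *ddit4* was 0.918 (edgeR). Where *ddit4* passed the filter with a single library left out, its log2 fold change ran from -1.06 to 0.08 (edgeR adjusted p between 0.810 and 0.991). DESeq2 called 1000 genes higher and 1539 lower, against 390 and 647 with edgeR. Leaving out single libraries gave 47 to 3128 genes higher and 65 to 3151 lower, and 0 to 3 members higher and 0 to 2 lower; 3128 and 3151 came without control replicate 1. Members called higher numbered 1 with upper quartile scaling and 0 with library size only. The other settings with all 6 libraries gave the same 3 member calls.

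With library size only, *rps6kb1a* (log2 fold change 0.85, adjusted p = 0.0811 from edgeR) and *irs1* (0.84, adjusted p = 0.117) lost their calls, and with upper quartile scaling *irs1* did (0.86, adjusted p = 0.0537). The cause was not tested. Near 0, *eif4ebp2* changed sign with limma-voom (0.011) and with the span trend removed (0.22). Without single libraries the log2 fold changes ranged from 0.80 to 1.04 for *rps6kb1a*, 0.10 to 0.24 for *rps6kb1b*, -0.55 to -0.21 for *eif4ebp1*, -0.16 to 0.18 for *eif4ebp2*, -0.30 to -0.05 for EIF4EBP3, 0.36 to 0.44 for *eif4ebp3*, 0.74 to 1.14 for *irs1*, -0.26 to 0.12 for *sesn1* and -1.10 to -0.84 for *sesn2*. Of the ratios, that of *eif4ebp1* to EIF4EBP3 changed sign (log2 difference -0.25 to 0.056) and the other 8 kept theirs; with 0 added counts all 9 kept their sign. The span trend could not be removed for the *eif4ebp3* rows, whose span is not known. No paired analysis was possible because the control and rapamycin libraries share no replicate number.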
